A study of Saposhnikovia divaricata with 9 samples.

Results

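In leaves of the medicinal herb Saposhnikovia divaricata, 49 of 63753 transcript clusters stood high in group M and low in groups L and C. They were chosen by their own levels, as deposited: the lowest of the 3 M values had to be at least 5 FPKM and at least 3 times the highest of the 6 L and C values plus 1, with a C mean below 1000. FPKM is the number of sequenced fragments scaled to the length of the cluster and to the fragments of the library. The high level in M and the low levels in L and C are therefore the choice itself and are given below as a description, without a test. What the choice did not fix is the direction in which L differed from C, how far the 3 M libraries differed, and how clusters chosen without a given library stood in that library.

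The study set untreated plants beside plants kept at 4 °C for 6 h or 48 h, all 48 days old, with poly(A) RNA from leaves sequenced in triplicate. The 9 libraries carry the codes M, L and C with replicate numbers 1 to 3, and nothing in the labels says which code is the control and which the shorter or longer cold. The groups are called by their codes, and no order in time is read from them. Neither the cultivar, the number of plants per library nor whether replicates came from separate plants is stated in the labels, so p-values measure the spread between these libraries. The extraction text in the labels names an animal tissue, which cannot describe these samples, and leaf markers could not be checked because the identifiers carry no gene names.

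Saposhnikovia belongs to the carrot family, and its root is the part used in medicine. In Arabidopsis, cooling is followed by early and passing induction of CBF/DREB transcription factors, and these switch on a later set of protective genes such as dehydrins and other cold-regulated proteins. Many plant genes also follow the daily clock or respond to touch, wounding or water loss. Where a plant's transcripts are assembled from its own reads, related transcripts are commonly gathered into clusters, and a cluster stands in for a gene. None of the 49 can be assigned to such a pathway here, because the table used here pairs the identifiers with no name, description or sequence; a bulk leaf sample also cannot tell fewer cells of a type apart from less RNA per cell.

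The 49 clusters spanned a wide range of abundance at their peak. Their M means ran from 5.52 to 1570.4 FPKM with a median of 26.6 FPKM, while the medians of their L and C means were 0.607 and 0.753 FPKM. In M, 4 clusters averaged at least 500 FPKM, 5 lay between 100 and 500, 8 between 50 and 100, 13 between 20 and 50, 10 between 10 and 20, and 9 below 10. The 4 most abundant held 62.7% of the FPKM that the 49 held in M, and the single most abundant held 29.3%. Most of the set was therefore moderate or low in level even at its peak, and its summed level was carried by a few clusters.

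**Figure D1:**
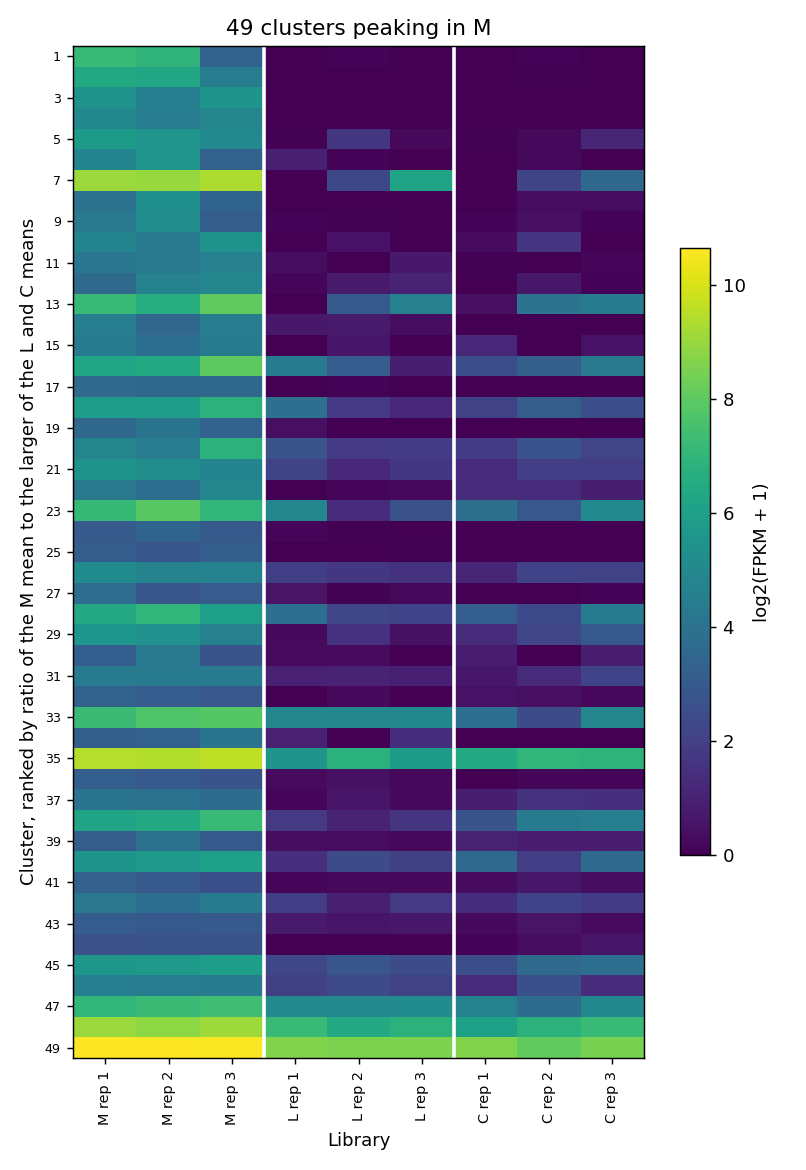
Level of each of the 49 clusters (rows, ranked from the top by the ratio of the M mean to the larger of the L and C means) in the 9 libraries (columns), in colour as log2(FPKM + 1). The M columns are bright in every row because the clusters were chosen so; the L and C columns run from 0 at the top to 393.78 and 398.13 FPKM at most in the bottom row.

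Cluster-17261.24260 was the most abundant in M. It stood at 1585.18, 1596.12 and 1529.97 FPKM in the M libraries, at 393.78, 373.27 and 368.13 FPKM in the L libraries and at 398.13, 261.25 and 358.90 FPKM in the C libraries. All 3 M values lay together, far above the L and C values, which overlapped each other. The log2 difference was 2.05 ± 0.18 for M minus L and 2.23 ± 0.18 for M minus C (SE, limma), the smallest of the 49 in both comparisons. It was abundant in every group: within the libraries it ranked 41, 41 and 45 in M, 237, 277 and 256 in L and 219, 356 and 243 in C.

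The next 3 clusters by M mean differed in where they stood outside M. The second had 699.09, 685.17 and 783.85 FPKM in M, 44.14, 111.64 and 54.67 in L and 89.17, 128.08 and 118.86 in C. The fourth had 529.72, 452.37 and 540.87 FPKM in M, 146.89, 89.38 and 113.78 in L and 65.67, 112.49 and 143.64 in C. Both kept a clear level in all L and C libraries. The third had 520.57, 512.09 and 652.40 FPKM in M, but 0, 3.94 and 73.05 in L and 0, 3.57 and 11.25 in C. Its 3 M libraries were close to each other, while its L libraries ran from a listed 0 to a moderate level.

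The 2 clusters with the steepest peaks ranked 12 and 14 by M mean, while the third by M mean, described above, ranked 7 by steepness. Ranked by the ratio of the M mean plus 1 to the larger of the L and C means plus 1, Cluster-17261.24501 came first with a ratio of 89.0. It stood at 142.49, 118.67 and 9.21 FPKM in M, at 0, 0.07 and 0 in L and at 0, 0.07 and 0 in C. M replicate 3 was far below the other M libraries, though still above all L and C libraries. The log2 difference was 5.77 ± 0.84 both for M minus L and for M minus C (SE, limma); without M replicate 3 it was 7.001 for both, and for M minus C a pseudocount of 0.1 in place of 1 gave 8.82 and one of 5 gave 3.67. The cluster ranked 2, with a ratio of 62.9, showed the same uneven peak, at 88.25, 78.98 and 20.92 FPKM in M, 0 in all 3 L libraries and 0, 0.04 and 0 in C.

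The clusters ranked 3 and 4 were listed at 0 in all 6 L and C libraries. They had 42.83, 22.88 and 44.20 FPKM and 30.04, 21.71 and 27.93 FPKM in the M libraries. No fold can be given against groups listed at 0. A further 18 clusters stayed above 0 but below 1 FPKM at their highest L or C value, so 20 of the 49 were nearly undetected outside M; their M means ran from 5.52 to 90.1 FPKM. Another 15 had a highest L or C value of 1 to below 10 FPKM, 11 of 10 to below 100, and 3 of 100 or more. The median ratio was 10.1 in the class above 0 and below 1, 8.16 in the next, 7.83 in the next and 4.32 in the 3 highest, a fall that the ratio's own denominator favours.

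At the edges of the choice the values were continuous. The cluster just inside the factor of 3, ranked 28, had 83.74, 127.54 and 64.00 FPKM in M, 13.66, 3.74 and 3.42 in L and 8.07, 4.16 and 20.30 in C, with its lowest M value 3.005 times the highest other value plus 1. The cluster just outside had 14.33, 9.54 and 14.31 FPKM in M, 1.04, 0 and 0.77 in L and 0.95, 1.34 and 2.20 in C, at 2.98 times. There were 30 clusters with a factor of 2.5 to below 3 and 14 chosen ones between 3 and 3.5. At the lower limit of 5 FPKM, the cluster ranked 41 was just inside with a lowest M value of 5.01, and a cluster at 12.19, 4.63 and 27.74 FPKM in M and 0 in all 6 L and C libraries was just outside. The limit on the C mean removed 0 clusters.

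Together the 49 took a small part of the leaf transcriptome. They held 0.585%, 0.596% and 0.654% of all FPKM in the M libraries, 0.0875%, 0.0743% and 0.0835% in the L libraries and 0.0736%, 0.0711% and 0.0965% in the C libraries. The M shares follow from the choice. It also held every L and C value under the same ceiling, which favours similar shares in L and C. Nothing is therefore read from the tests of L against C given next. L and C overlapped, averaging 0.0818% ± 0.0067 for L and 0.0804% ± 0.014 for C (SD, n = 3 each; exact permutation test, two-sided, p = 0.8, where 0.1 is the smallest possible). Without the 4 most abundant, the rest held 0.228% ± 0.022 in M, 0.0155% ± 0.0038 in L and 0.0175% ± 0.0074 in C, and L and C again overlapped (n = 3 each; exact permutation p = 0.8). Between 9 and 15 of the 49 were listed at 0 in an L library and between 12 and 16 in a C library.

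**Figure D2:**
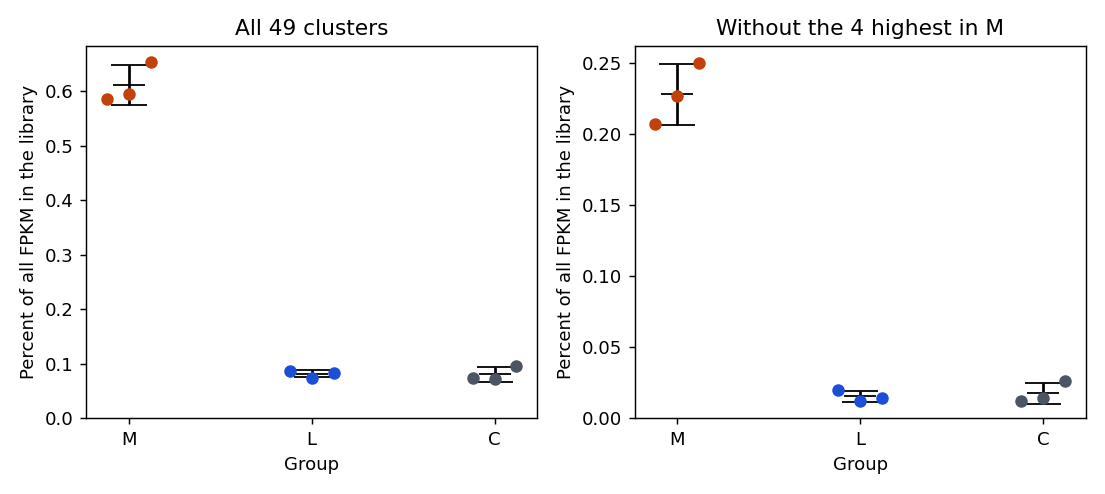
Percent of all FPKM of a library held by all 49 clusters (left) and by the 45 that remain without the 4 highest in M (right), by group; points are libraries, lines the mean with 1 SD (n = 3). M lies between 0.585% and 0.654% on the left because of the choice, while L and C overlap in both panels.

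The 3 M libraries differed widely for part of the set. The highest M library exceeded the lowest at least 2-fold in 15 of the 49, or 30.6%, against 12.2% of 16417 other tested clusters with M means in the same range. The median SD of the 3 M values was 0.34 among the 49 and 0.19 among the others on the log2(FPKM + 1) scale. This gap was widest at M means of 20 to below 100 FPKM, where 9 of 21 chosen clusters and 8.78% of 5321 others reached 2-fold. It was smaller at 5 to below 20 FPKM, where 4 of 19 chosen clusters (21.1%) and 15.1% of 10780 others did. The median SDs there were 0.251 and 0.199. At M means of 100 or more 2 of 9 chosen clusters and 9.17% of 1156 others reached 2-fold, with median SDs of 0.195 and 0.192. These are descriptions; the choice itself limits how low an M value can be.

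The uneven peaks did not all lean the same way. Of 8 clusters whose M libraries differed at least 3-fold, M replicate 3 was lowest in 6. The cluster ranked 6 had 26.64, 45.98 and 8.77 FPKM in the M libraries, that ranked 8 had 14.83, 39.02 and 9.85, and that ranked 9 had 18.30, 36.27 and 7.77. In these, M replicate 3 was lowest and M replicate 2 highest, and all their L and C values were below 1 FPKM. The opposite was seen in the cluster ranked 16, at 74.45, 87.59 and 257.00 FPKM, and in that ranked 20, at 27.30, 20.91 and 112.56, where M replicate 3 was by far the highest. Divided after the values were seen, M replicate 3 was highest in 17 of the 29 clusters with an L or C value of 1 FPKM or more, and in 3 of the 20 without one. Over all 49, M replicates 1, 2 and 3 were highest in 17, 12 and 20, so each M library was the highest for a part of the set.

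**Figure D3:**
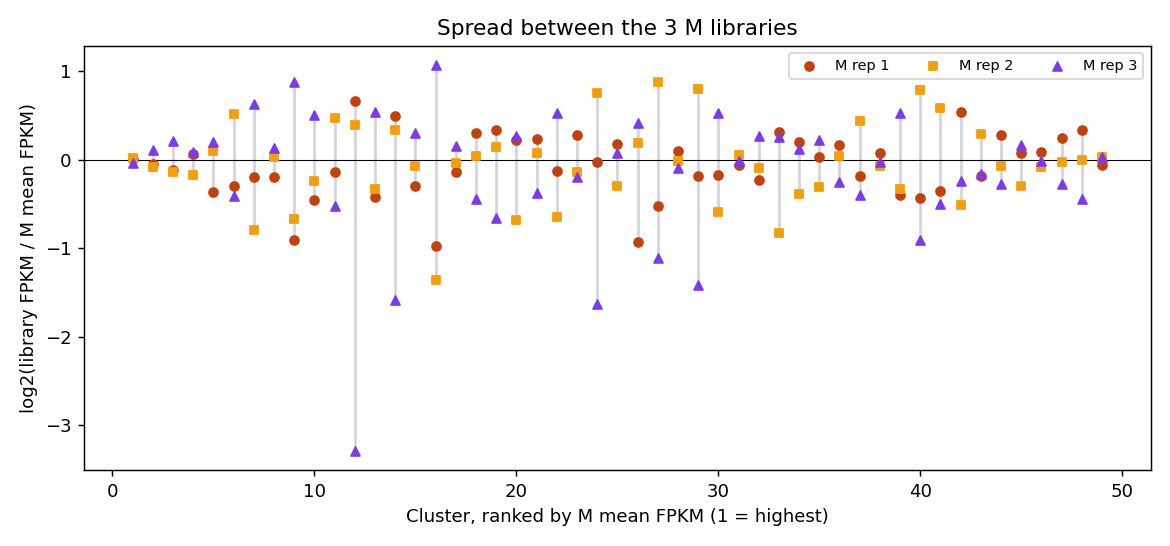
Level of each cluster in M replicates 1, 2 and 3 relative to its M mean (log2, vertical axis), with clusters ranked by M mean along the horizontal axis; grey lines join the lowest and highest M library. The longest line is that of Cluster-17261.24501 at rank 12, where M replicate 3 stood at 9.21 FPKM against 142.49 and 118.67.

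Other clusters had M values that hardly differed. The cluster ranked 44 had 5.29, 5.64 and 5.64 FPKM in M, 0 in all 3 L libraries and 0.07, 0.27 and 0.54 in C. That ranked 31 had 19.07, 20.62 and 19.62 FPKM in M, 0.97, 1.05 and 0.90 in L and 0.63, 1.44 and 3.44 in C. That ranked 17 had 11.81, 10.70 and 11.03 FPKM in M, 0, 0.08 and 0 in L and 0 in all C libraries. Even peaks were thus found at low level as well as at the top.

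The 49 clusters were next compared between L and C. The choice held both groups under the same ceiling, which leaves less room for a difference than other clusters have, but it fixed no direction. Of the 49, 3 fell in L against C and 0 rose (limma on all 35314 tested clusters, adjusted p below 0.05 and at least 2-fold), or 6.12% in all, where 40.7% of all tested clusters were called, 10.2% higher and 30.5% lower in L. Nothing is read from this gap, because the calls depend on the level that the choice held down. With every L and C value below 1 FPKM, a 2-fold difference cannot be reached on the log2(FPKM + 1) scale. The 0 calls among the 548 tested clusters at that level were therefore fixed in advance. Of the 49, 20 lie there and could not be called. Of the 12 chosen clusters with a highest L or C value of 1 to below 5 FPKM, 1 was called, where 22.7% of all tested clusters at that level were. With a highest value of 5 FPKM or more, 2 of 17 were called, where 51.6% were, and there too the choice kept L and C low relative to M. The median log2 difference L minus C was -0.03 over the 49 and -0.56 over all tested clusters. Counted at an unadjusted p below 0.05, they were 8 of 49 and 58.5% of all tested clusters, under the same restriction. All 49 had passed the filter for testing through their M values. Single libraries move these small counts: without L replicate 2, 5 fell and 1 rose, where 28.3% of all tested clusters fell and 10.9% rose in that fit.

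The largest fall in L among them was that of Cluster-17261.31513. It had 72.29, 84.32 and 141.30 FPKM in M, 2.37, 1.02 and 2.05 in L and 5.83, 20.20 and 22.43 in C. All L values lay below all C values, and all M values above both. L minus C was -2.45 ± 0.47 (log2, SE; limma adjusted p = 0.0021), a fall in 3 of 3 L libraries. The call held under each of the 18 alternatives run for it here (pseudocount, filter, scaling, trend, block, groups fitted and left-out library), with values between -3.02 and -1.53. As a description, M minus C was 2.68 ± 0.47 and M minus L was 5.13 ± 0.47 (log2, SE, limma).

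The other falls in L were at low levels. The cluster ranked 22 had 17.92, 13.36 and 29.15 FPKM in M, 0, 0.13 and 0.16 in L and 1.53, 1.52 and 0.88 in C, with L minus C at -1.06 ± 0.29 (log2, SE; limma adjusted p = 0.012). That ranked 29 had 47.13, 41.16 and 23.73 FPKM in M, 0.21, 1.88 and 0.40 in L and 1.56, 3.69 and 6.57 in C, with L minus C at -1.41 ± 0.47 (log2, SE; limma adjusted p = 0.031). The first had L and C values apart, while in the second they overlapped. Neither call is firm: after median scaling or quantile normalization 1 of the 49 was called lower in L, and that was Cluster-17261.31513.

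Without regard to the test, the L and C values of 38 clusters overlapped, those of 6 were lower in every L than in every C library and those of 5 were higher. These are 12.2% and 10.2% of the 49, where 43.8% and 14.3% of all tested clusters separated in these directions; the ceiling set by the choice applies here as well. The cluster ranked 33 had the highest M mean of the 5, with 152.16, 211.01 and 225.90 FPKM in M, 28.49, 28.61 and 30.51 in L and 13.49, 4.59 and 27.44 in C; L minus C was 1.19 ± 0.48 and did not pass (limma adjusted p = 0.066). That ranked 47 had 130.54, 152.38 and 163.95 FPKM in M, 32.97, 30.96 and 33.78 in L and 24.80, 12.52 and 30.23 in C, at 0.60 ± 0.28 (limma adjusted p = 0.099). In both the L libraries lay close together and the C libraries were spread, with C replicate 2 lowest.

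Scaling bears on the direction, for these clusters and for all. As deposited, the median FPKM of the tested clusters was 2.57, 2.22 and 2.81 in the L libraries. It was 4.33, 4.98 and 4.96 in the C libraries and 4.75, 4.81 and 4.77 in the M libraries. Median scaling therefore raises L values relative to C and M. Why the L medians were lower was not tested. With each library scaled to the same median, 5 of the 49 were called higher in L and 1 lower, where 18.8% of all tested clusters were higher and 14.8% lower. With quantile normalization they were 3 and 1, where 15.1% were higher and 16.7% lower. Nothing is read from these shares, because the ceiling set by the choice applies here as well. Cluster-17261.24260 was among the 5: its L minus C was 0.18 ± 0.18 as deposited (limma adjusted p = 0.44) and 1.09 ± 0.24 after median scaling (limma adjusted p = 0.0053). Whether it is called higher in L thus depends on how the libraries are scaled to each other.

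**Figure D4:**
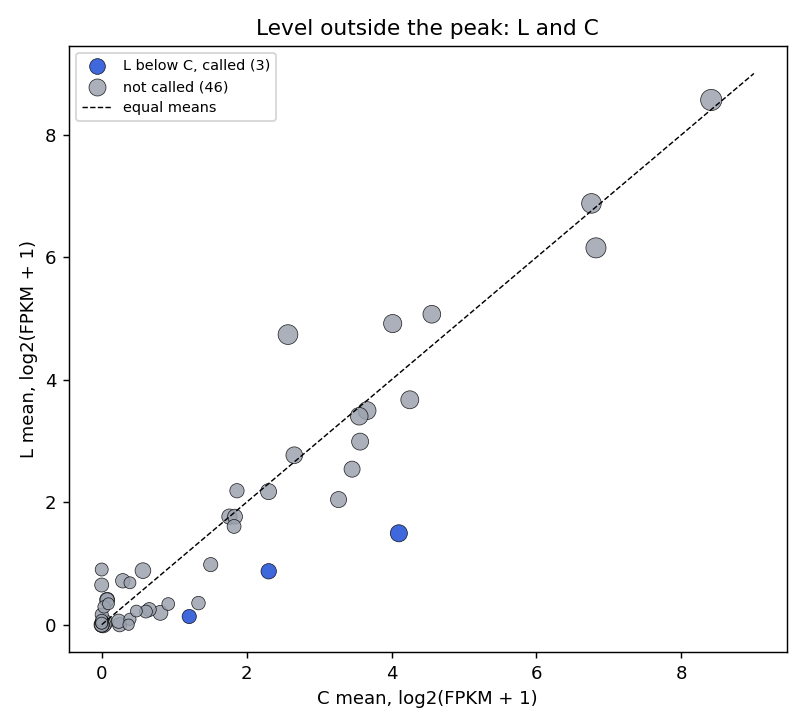
Mean level of each of the 49 clusters in L (vertical) and C (horizontal), both as log2(FPKM + 1); larger points had higher M means and the dashed line marks equal means. The 3 clusters called lower in L (blue) lie below the line, and the right-hand one is Cluster-17261.31513 with -2.45 for L minus C.

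Single libraries of C and L also stood out for particular clusters. Of the 17 clusters with an L or C value of at least 5 FPKM, C replicate 3 was the highest C library in 12, C replicate 2 in 4 and C replicate 1 in 1. L replicates 1, 2 and 3 were the highest L library in 8, 5 and 4 of the 17. Over the 41 clusters above 0 in any C library, C replicates 1, 2 and 3 were highest in 6, 18 and 17. The same counts were not made over all tested clusters. In the cluster ranked 13, which had 147.68, 97.26 and 261.38 FPKM in M, the L libraries were at 0, 7.02 and 23.81 and the C libraries at 0.36, 15.50 and 19.10. Replicate 1 was the lowest in both L and C there and in the cluster ranked 7, described above as the third by M mean. The clusters ranked 18 and 16 showed a high L replicate 1, at 13.66 against 2.39 and 1.37 FPKM for the first and 20.37 against 7.52 and 0.86 for the second.

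Leaving a library out of the choice gives a reading of that library that the choice did not use. Clusters that met the conditions without a library and also in that library are the 49 by definition. Only the number that met them without it can vary. Without M replicate 1, 64 clusters met the conditions, and the left-out library met them too in the 49, or 76.6%. Without M replicate 2 they were 102, of which 48.0% held, and without M replicate 3 they were 91, of which 53.8% held. In 60 of 64, 97 of 102 and 86 of 91 the left-out M library still lay above every L and C value, counts that include the 49 by definition. For the L libraries the share that held was 92.5%, 67.1% and 86.0% for replicates 1 to 3, and for the C libraries 94.2%, 55.1% and 76.6%. Without C replicate 2 there were 89 clusters, and in 19 of these that library reached or passed the lowest M value, the most of any left-out library.

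**Figure D5:**
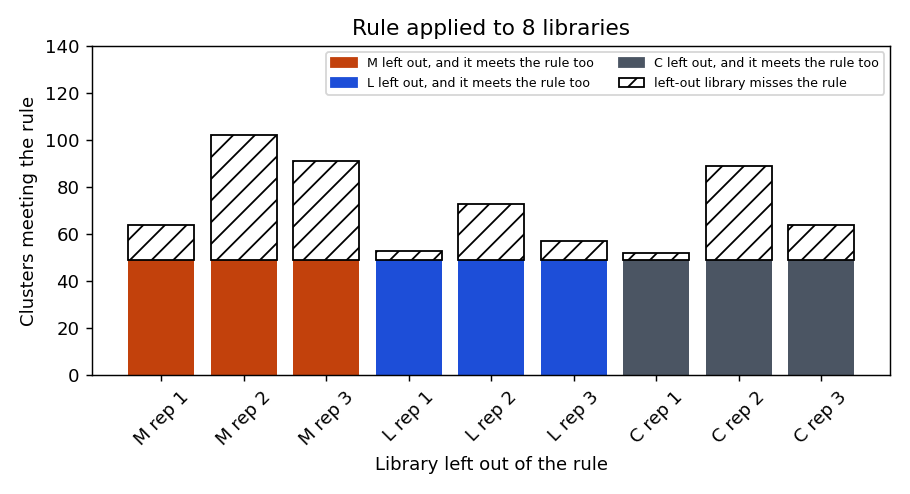
Number of clusters that met the conditions when each library in turn was left out (bar height), with the solid part showing those in which the left-out library met them as well. The solid part is the same 49 in every bar by definition. The hatched part is longest for M replicate 2, where 102 clusters met the conditions, and shortest for C replicate 1, with 52.

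The same conditions with another group in the place of M found 430 clusters high in L alone and 53 high in C alone, the C limit not applying to the latter. Mirrored, with the lowest of the other 6 values at least 5 FPKM and at least 3 times the highest value of the low group plus 1, they found 3 clusters low in M alone, 651 low in L alone and 248 low in C alone. As deposited and under these conditions, peaks in M were thus few beside those in L and similar in number to those in C. The counts for L and C were not repeated under other scalings or conditions, under which the count for M ran from 28 to 140. By the limma calls, 1183 of the tested clusters were higher in M than in both L and C, and 1034 of these had no call between L and C. The chosen clusters among those 1034 numbered 46, with a median ratio of 8.45, against 2.81 for the other 988; the median M mean was 24.4 FPKM for the 46 and 4.73 FPKM for the 988. All 49 were called higher in M than in C, where 8.16% of all tested clusters were, and higher in M than in L, where 25.7% were; nothing is read from these counts, since the choice used the same differences.

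The identifiers add a property that the choice did not use. All 49 carry the parent number 17261, as do 69.8% of all clusters but 99.8% of 15218 tested clusters with at least 5 FPKM in every M library, so at this level the shared parent is ordinary. Within the parent, 8 of the 49 (16.3%) had a second number from 4000 to below 5000, against 1.83% of the tested clusters of this parent and 0.711% of those with at least 5 FPKM in every M library. This range was picked after the numbers were seen, so no test is given, and what neighbouring numbers share is not stated in the sources used here. Of these 8, 7 had all L and C values below 1 FPKM, and the other was the cluster ranked 7. Their M means ran from 7.50 to 561.7 FPKM.

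A pair of clusters, ranked 23 and 28, had second numbers that differ by 2. The first had 137.25, 242.07 and 127.36 FPKM in M, 28.66, 1.42 and 5.16 in L and 14.32, 6.32 and 33.51 in C, and the values of the second are given above. The first over the second was 1.64, 1.90 and 1.99 in M, 2.10, 0.380 and 1.51 in L and 1.77, 1.52 and 1.65 in C. The ratio was nearly constant except in L replicate 2, and both clusters peaked in M replicate 2. If reads were shared between near-identical transcripts, these levels would not be independent, which was not tested.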

How the data were processed

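Poly(A) RNA of leaves was sequenced in 9 libraries, 3 each of M, L and C. The deposited table gives FPKM per cluster, calculated by the authors per the file headers and rounded to 2 decimals; how reads were assembled, mapped, counted or annotated was not given in the sources used here. Depth is unknown, so no counting interval is given. Library sums of FPKM ran from 863749 to 932785, and no libraries held identical values.

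The 49 clusters and the comparisons were chosen with earlier results of these data known. The 35314 clusters that reached 1 FPKM in 3 or more libraries were fitted as log2(FPKM + 1) with limma 3.58.1 in R 4.3.3, an intensity trend and the 3 groups, without a block. Residual degrees of freedom were 6 and prior ones 2.88. Adjustment was by Benjamini-Hochberg over all tested clusters, and a call needed an adjusted p below 0.05 and at least 2-fold. Fold changes on this scale understate those of low clusters. Members' M libraries enter the same spread estimate as L and C. Identifiers named are the steepest and the most abundant in M and the largest called rise (there was none) and fall in L against C; other clusters are given by rank. Pathway and marker lists need gene names and were not run. Alternatives were pseudocounts, filters, scalings, trend, groups fitted, a block, the conditions of the choice and each library left out.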

Additional observations from a re-analysis of the deposited data

Results flagged for a closer look

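Of the 49 clusters, 3 were called higher in M and lower in L, both against C (limma), so their differences from C run in opposite directions. Over all 35314 tested clusters, 1183 were called higher in M than in both L and C. Of these 1183, 95 were also called lower in L than in C, which is 0.269% of all tested clusters. All 49 are among the 1183 through the choice, so the base for the 3 is the 95 of 1183 and not the 0.269%. The choice of the clusters used M against C and M against L, so the call that it did not fix is the fall in L against C. The 3 chosen clusters are Cluster-17261.31513 and those ranked 22 and 29, and the fall of both ranked clusters was not called after median scaling or quantile normalization.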

How the results depend on the processing

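The number of clusters chosen depended on the conditions: 140 with a factor of 2, 28 with a factor of 4, 75 with a constant of 0.1 and 30 after median scaling, 29 of them among the 49. It ran from 52 to 102 with a library left out, the highest without M replicates 2 and 3 (102 and 91) and C replicate 2 (89). Counts of the 49 called in L against C moved with the settings. Nothing is read from them, because the ceiling set by the choice applies here as well. A pseudocount of 0.1 gave 6 lower and 1 higher, where 34.9% and 11.3% of all tested clusters were called. A pseudocount of 5 gave 1 lower, where 13.6% were. Quantile normalization gave 1 lower and 3 higher, where 16.7% and 15.1% were. Median scaling gave 1 lower and 5 higher, where 14.8% and 18.8% were. With a library left out, 2 to 5 were lower, where 28.3% to 31% of all tested clusters were. In the same fits 0 to 1 were higher, where 9.16% to 10.9% were, and 1 rose without L replicate 2 or C replicate 3. Over all tested clusters, a pseudocount of 5 gave 6980 calls in L against C (2177 higher, 4803 lower), 1343 higher in M than in C and 3462 higher in M than in L. Median scaling gave 6636 higher and 5213 lower in L against C and 3841 higher in M than in L; quantile normalization gave 5886 lower in L against C and 4074 higher in M than in L. Requiring 5 FPKM in 3 libraries, which tests fewer clusters, left 1848 higher in M than in C, and leaving out a library 1903 to 3334, the lowest without C replicate 1. The share of FPKM in the 49, L minus C, lay between -0.00327 and 0.00941 percentage points with a library left out; it changed sign without L replicate 1 (-0.00147), C replicate 1 (-0.002) and C replicate 2 (-0.00327). Cluster-17261.24260 was called higher in L after median scaling (1.09). Same-numbered libraries of different groups did not deviate together (correlations -0.06 to 0.031; highest for the own number in 2 of 9), so numbers were not taken as pairs. The fit with a replicate block gave 14315 calls in L against C. In that fit 3 of the 49 were lower and 0 higher, where 30.4% and 10.2% of all tested clusters were. The causes of these shifts were not tested. Without fragment counts, differences among clusters below 1 FPKM cannot be weighed.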
